A study of Homo sapiens with 12 samples.

Results

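Tight junctions close the space between epithelial cells, and the mRNAs of 10 of their proteins were followed on the 12 arrays of this study: the claudins CLDN1, CLDN2, CLDN3, CLDN4, CLDN7, CLDN10, CLDN12 and CLDN16, occludin (OCLN) and zonula occludens-1 (TJP1). The genes were chosen by name, as every non-control probe whose gene name is one of these 10, which gave 14 of the 34127 probes and 10 of the 25992 gene names on the array. RNA came from 2 human proximal tubular cell lines, HK-2, a line immortalised with papillomavirus genes, and RPTEC/TERT1, a line immortalised with the catalytic subunit of telomerase. Cells of both lines were starved of serum and supplements for 24 h and then left without a ligand (control), or given IL-1β at 10 ng/mL or the SGLT2 inhibitor empagliflozin (Empa) at 500 nM for 24 h. All groups shared the starvation and a medium with normal glucose, each group held 2 arrays, and no group received both agents. Each array measured 1 RNA sample by hybridization of Cy3-labelled cRNA to 60-base probes.

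Claudins are membrane proteins whose extracellular loops meet between neighbouring cells, where some of them seal the gap and others form pores for ions or water. Occludin accompanies them in the junction strand, and zonula occludens-1 ties the strand to the actin cytoskeleton. The leaky proximal tubule is known for the cation and water pore CLDN2, while CLDN16 is known from the thick ascending limb, where it takes part in the uptake of magnesium and calcium.

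The arrays lay on 4 slides, each with the control, the IL-1β and the Empa array of a line and a replicate number, so that array position cannot be told apart from treatment. Line names are those of the sample titles. Another label of the samples names HK-2 as the source of all 12. The controls were compared over 15324 probes that no array showed near background. That of HK-2 replicate 1 correlated with that of RPTEC/TERT1 replicate 2 at r = 0.984, and HK-2 replicate 2 with RPTEC/TERT1 replicate 1 at r = 0.973. Within a line as titled the values were 0.880 for HK-2 and 0.875 for RPTEC/TERT1. Values are therefore given slide by slide, with H1 and H2 for the slides of HK-2 replicates 1 and 2 and R1 and R2 for those of RPTEC/TERT1 replicates 1 and 2, each treated array against the control of its own slide, which does not depend on the line names. Nothing in the sources used here says which titles, if any, are in error, and results by line hold only as the titles stand. An array had 52.7% to 63.1% of its probes well above background, and the number of arrays limits the precision of every value.

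Levels are log2 signals relative to the 75th percentile of the array, so a level of 0 is that percentile, and levels of different probes are not set against each other. Where an array was not well above background, a fold is a lower bound, taken against the higher of the gene's own reading there and the lowest signal well above background on that array.

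Promoters are shown for CLDN2, CLDN1, CLDN16 and CLDN4, whose values with the same agents ran in different directions, and not for the other genes. Each line gives the 250 bases before an annotated start, 5′ to 3′, from RefSeq on GRCh38.p14, with capitals for a match to the AP-1 motif TGANTCA.
CLDN2, first start (chrX:106899914-106900163, plus strand): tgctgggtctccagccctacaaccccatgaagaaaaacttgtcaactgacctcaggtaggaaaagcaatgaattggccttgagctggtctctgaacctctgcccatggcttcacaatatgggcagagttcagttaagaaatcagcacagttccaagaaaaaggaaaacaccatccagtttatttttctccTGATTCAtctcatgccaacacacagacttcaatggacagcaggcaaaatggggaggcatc
CLDN2, second start (chrX:106918110-106918359, plus strand): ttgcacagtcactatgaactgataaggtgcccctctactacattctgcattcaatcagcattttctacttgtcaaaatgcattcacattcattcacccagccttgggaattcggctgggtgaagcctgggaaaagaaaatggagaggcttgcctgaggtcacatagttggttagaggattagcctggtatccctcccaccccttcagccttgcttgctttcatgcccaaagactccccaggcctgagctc
CLDN1 (chr3:190322447-190322696, minus strand): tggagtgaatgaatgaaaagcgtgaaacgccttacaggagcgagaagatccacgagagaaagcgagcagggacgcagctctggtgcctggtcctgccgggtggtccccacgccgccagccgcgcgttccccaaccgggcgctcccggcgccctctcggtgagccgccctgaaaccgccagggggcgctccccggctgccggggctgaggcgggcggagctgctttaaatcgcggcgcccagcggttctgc
CLDN16, first start (chr3:190290111-190290360, plus strand): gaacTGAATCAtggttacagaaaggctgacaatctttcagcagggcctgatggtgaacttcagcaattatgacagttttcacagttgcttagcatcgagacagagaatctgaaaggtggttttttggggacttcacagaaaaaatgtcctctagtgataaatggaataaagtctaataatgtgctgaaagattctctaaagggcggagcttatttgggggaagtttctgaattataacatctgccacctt
CLDN4 (chr7:73830746-73830995, plus strand): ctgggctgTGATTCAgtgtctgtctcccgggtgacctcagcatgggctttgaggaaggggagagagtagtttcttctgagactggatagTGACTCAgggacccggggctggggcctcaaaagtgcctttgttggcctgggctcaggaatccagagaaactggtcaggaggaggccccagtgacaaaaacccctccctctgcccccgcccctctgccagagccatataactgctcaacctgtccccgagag

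RefSeq listed 18 starts for the 10 genes. Besides TGANTCA, which reads the same on both strands, the kappaB consensus and the TATA box TATAAA were searched on both strands, and no matches overlapped. Matches were found at 3 of the 18 starts and were AP-1 motifs: 1 at the first start of CLDN2, 1 at the first start of CLDN16 and 2 at CLDN4. All 3 of these starts are printed above, so the printed stretches hold matches more often than the 18 do. The second start of CLDN16 and the starts of CLDN3, CLDN12 and the remaining genes held none and are not printed. Of 35116 promoter stretches of this length, 6.57% held the AP-1 motif, 5.21% the kappaB consensus and 10.7% TATAAA. These letters are a description of the stretch and not a site. CLDN1 lies within the annotated span of CLDN16 on the opposite strand.

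CLDN2, the cation and water pore of the proximal tubule, was the gene of the 10 with the largest differences. Its probe, on chromosome X of hg19 from 106174032 to 106174091, was well above background on all 12 arrays. Control levels were 2.16 and 2.64 on H1 and H2, and 1.69 and 2.08 on R1 and R2. With Empa the levels were 0.20, 0.74, -0.12 and -0.43 in the same order. Every Empa array lay below every control array, a separation for which the share over all genes is not given here. Within the slides CLDN2 was 3.90-fold and 3.74-fold lower with Empa in HK-2, and 3.51-fold and 5.69-fold lower in RPTEC/TERT1. Of 17426 genes, 13 (0.0746%) were lower by at least 1 log2 unit on all 4 slides. Ordered by the smallest of the 4 differences, CLDN2 ranked 1 of these 17426 genes, at -1.81 log2 units.

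The test of this difference depended on which arrays shared the estimate of the spread. In the limma fit of all 12 arrays without a block, the log2 fold change of CLDN2 with Empa was -2.05 (SE 1.09, unadjusted p = 0.0971, adjusted p = 1, limma, mean of both lines). With the slide as a block and 1 effect per treatment, the SE was 0.88 and the adjusted p 0.404 (limma, unadjusted p = 0.0443). The IL-1β arrays enter that spread. A fit of the 4 control and 4 Empa arrays with the slide as a block, chosen after the data were seen, gave the same fold change with an SE of 0.19 (limma, unadjusted p = 1.2e-05, adjusted p = 0.0821). CLDN2 did not pass the threshold of 0.05 in any of these fits.

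With IL-1β, the values of CLDN2 lay on opposite sides of the control on different slides. Its levels were 2.82 on H1 and 3.16 on R2, but -0.96 on H2 and -1.65 on R1. The first pair of levels lay above all 4 controls and the second below all of them. Against the control of the slide, CLDN2 was 1.57-fold higher for H1 and 2.12-fold higher for R2, and it was 12.1-fold lower for H2 and 10.2-fold lower for R1. Both lines as titled thus held 1 slide of each direction. Of 17426 genes, 1368 (7.85%) were higher and lower on the same slides as CLDN2 by any amount, and 34 (0.195%) did so by at least 1 log2 unit on every slide, which CLDN2 missed because of its 0.66 on H1. The fitted mean of -1.30 (SE 0.88, adjusted p = 0.370, limma with the slide as a block and 1 effect per treatment) averages slides that differ in sign.

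The genes whose pattern was nearest to that of CLDN2 were sought over the 8 differences, 4 slides with IL-1β and 4 with Empa, among 12984 genes well above background on all arrays. SLC17A3, an organic anion transporter of the proximal tubule, came nearest, with a mean absolute distance of 0.67 log2 units. Its IL-1β differences were 0.57, -2.76, -2.80 and 1.24 log2 units and its Empa differences -0.34, -1.97, -2.19 and -0.84, for H1, H2, R1 and R2. HRH3, a histamine receptor, followed at 0.95 and FILIP1L at 1.04. All 3 were lower with Empa on all 4 slides and changed sign with IL-1β between the same slides as CLDN2. They were chosen by these same differences, so the shared signs describe the choice and are not a separate result.

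**Figure D1:**
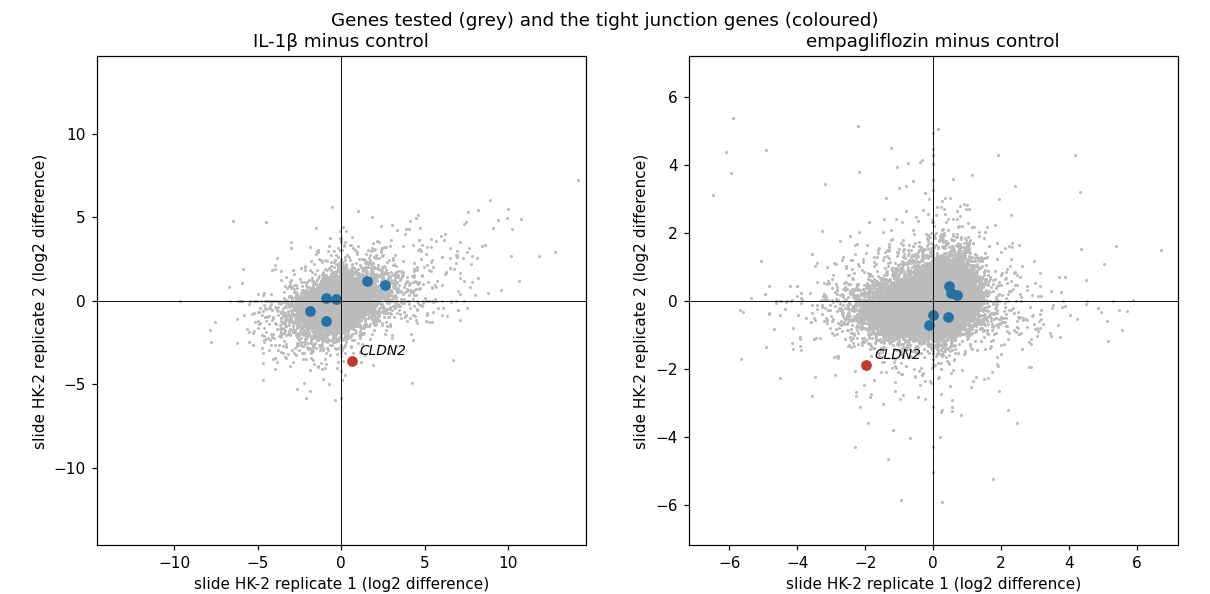
Each grey point is 1 of 17426 genes and gives its log2 difference from the control on the slide of HK-2 replicate 1 (x axis) and HK-2 replicate 2 (y axis), with IL-1β on the left and Empa on the right; coloured points are the tight junction genes measured on both slides, CLDN2 in red. CLDN2 lies at 0.66 and -3.60 with IL-1β and at -1.96 and -1.90 with Empa.

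CLDN10, which forms anion- or cation-selective pores depending on its isoform, and CLDN16 differed between slides already in the controls. CLDN16 had control levels of 2.74 on H1 and 3.15 on R2, against -3.40 and -4.17 on H2 and R1. With IL-1β it read 0.84 and 0.82 on the first pair, a 3.72-fold and a 5.06-fold fall. On H2 it was 1.51-fold lower at -4.00, and on R1 it dropped out of the range well above background, at least 1.41-fold lower. The IL-1β arrays thus lay below the control on all 4 slides. With Empa it was 1.10-fold, 1.64-fold and 1.48-fold lower on H1, H2 and R2, and at least 1.33-fold lower on R1.

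The brighter CLDN10 probe was well above background on all 6 arrays of H1 and R2, and on 1 of the 6 others. Its control levels on those slides were -0.23 and 0.60. With IL-1β it read 2.01-fold and 2.39-fold higher there, at 0.77 and 1.86, and at least 2.44-fold higher on H2. With Empa the same slides gave -0.55 and 0.84, on either side of their controls. The dimmer CLDN10 probe, for another transcript, read 1.37-fold and 1.19-fold higher with IL-1β on these slides and was not well above background on the other slides. CLDN10 did not pass the test with IL-1β (log2 fold change 0.99, SE 0.39, adjusted p = 0.141, limma with the slide as a block, 1 effect per treatment, genes well above background on at least 3 arrays).

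CLDN12, a claudin tied to paracellular calcium transport, was level across the slides and rose with IL-1β on all 4. Controls read -0.03 and 0.20 in HK-2 and 0.25 and 0.06 in RPTEC/TERT1, and IL-1β arrays 1.51, 1.37, 1.13 and 1.42. The groups did not overlap, and the share of all genes of which this holds is not given here. The rises within the slides were 2.91-fold, 2.25-fold, 1.83-fold and 2.57-fold. The second CLDN12 probe was dim and read higher with IL-1β on all 4 slides as well, by 1.20-fold where both arrays were measured, and by at least 1.95-fold, 1.26-fold and 2.94-fold on the others. With Empa the brighter probe gave 0.67, 0.38, 0.09 and 0.25, within 0.71 log2 units of the controls. It was 1.63-fold, 1.13-fold and 1.14-fold higher on H1, H2 and R2, and 1.12-fold lower on R1. The second probe was at least 1.02-fold lower on R1, and on the other slides neither array was well above background.

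Among the sealing claudins, CLDN1 had the pattern opposite to CLDN16 in the controls. Its levels were 0.58 on H1 and 0.49 on R2, against 2.99 for H2 and 3.33 for R1. With IL-1β the levels were 3.17, 2.75, 3.96 and 4.00 in that order, higher than the control on every slide. The rise was 6.04-fold and 4.80-fold where the control was low, and 1.95-fold and 1.59-fold where it was high. The IL-1β arrays accordingly spanned 1.25 log2 units and the controls 2.85. With Empa CLDN1 was 1.36-fold higher on H1 and lower on the other 3 slides, by 1.05-fold to 1.54-fold.

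CLDN3, another sealing claudin, fell by a like amount on each slide although its level differed widely between them. Controls read 3.36 for H1 and 3.11 for R2, against -2.74 for H2 and -2.70 for R1. IL-1β arrays read 2.41, 2.08, -3.97 and -3.69, which is 1.93-fold, 2.04-fold, 2.34-fold and 1.99-fold lower than the control of the slide. With Empa CLDN3 was 1.43-fold higher on H1 and between 1.00-fold lower and 1.18-fold higher on the others.

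CLDN4, which limits sodium passage in tight epithelia, had the same split of control levels. Its brighter probe read 7.26 on H1 and 7.41 on R2, and 3.12 and 2.82 on H2 and R1. The software marked the spot as an outlier on the 3 arrays of H2, so fits that leave out such spots do not hold this probe. On the slides where it was high its signal lay between 44783 and 54980 units on every array, and no array was marked as saturated for it. Before scaling, the control and IL-1β signals there were 54980 and 54713 units on H1 and 50503 and 51602 on R2, while the 75th percentile was 359 and 437 units on the arrays of H1 and 298 and 389 on those of R2. The Empa signals there were 48565 and 44783 units, at 75th percentiles of 318 and 467. The differences of this probe with IL-1β on these slides thus follow the scaling, and those with Empa also depend on it. Compression of such high signals was not tested. Its differences from control were -0.29, 0.08, 0.31 and -0.35 log2 units with IL-1β on H1, H2, R1 and R2, and -0.01, -0.41, -0.35 and -0.82 with Empa. A fit with outlier spots kept gave -0.06 (SE 0.19, adjusted p = 0.865) for IL-1β and -0.40 (SE 0.19, adjusted p = 0.465) for Empa (limma with the slide as a block, 1 effect per treatment). The second CLDN4 probe was well above background on 2 of 12 arrays, the controls of H1 and H2. There it was at least 2.75-fold and 2.18-fold lower with IL-1β, and at least 2.55-fold and 4.09-fold lower with Empa, so the probes differed. Where outlier spots are left out, this dim probe stands for CLDN4 among the 9 genes tested.

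CLDN7, a claudin of the distal nephron, stayed between -4.93 and -4.01 on all 12 arrays and was well above background on 7 of them. Its differences from control, where measured on both arrays, were 1.20-fold lower with IL-1β and 1.28-fold lower with Empa on R1. On R2 it was at least 1.23-fold higher with IL-1β, and on H2 at least 1.08-fold higher with Empa. No bound was available for the other pairs.

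OCLN was read by 2 probes, both well above background on the 6 arrays of H1 and R2 and on none of the others. The brighter probe gave control levels of 0.60 and 0.50 on these slides and IL-1β levels of -0.79 and -0.40, a 2.63-fold and a 1.87-fold fall. The second probe fell by 2.04-fold and 1.91-fold there. With Empa the brighter probe was 1.47-fold lower on the first of these slides and 1.04-fold higher on the second.

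TJP1, the scaffold, was well above background on all 12 arrays. Control levels were 2.02 and 0.93 in HK-2 and 1.40 and 1.81 in RPTEC/TERT1. With IL-1β they were 1.09, 1.08, 0.98 and 0.97, which is 1.91-fold lower, 1.11-fold higher, 1.34-fold lower and 1.79-fold lower than the control of the slide. The IL-1β arrays lay closer together than the controls. TJP1 did not pass the test (log2 fold change -0.51, SE 0.22, adjusted p = 0.173, limma with the slide as a block, 1 effect per treatment, outlier spots kept).

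**Figure D2:**
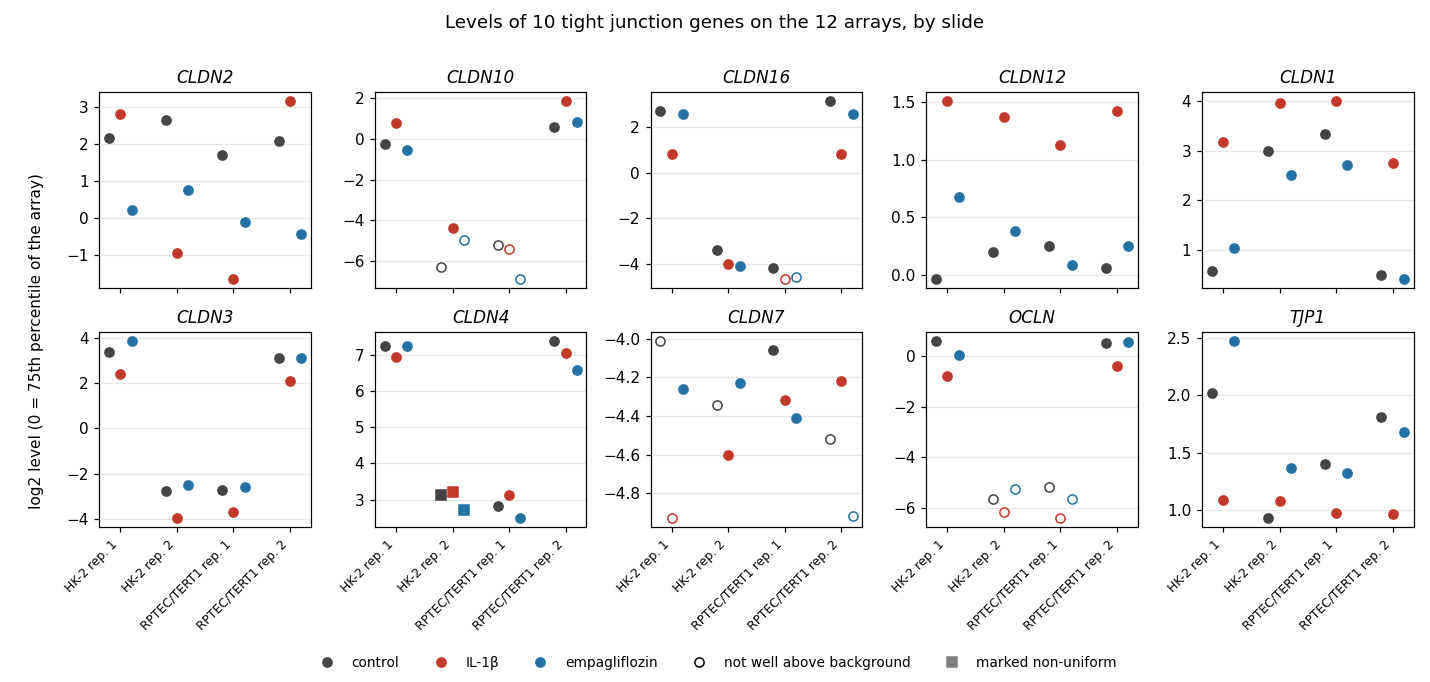
Each panel gives the log2 level of 1 gene, by its brightest probe, on the 4 slides (x axis), with black points for control, red for IL-1β and blue for Empa; open points were not well above background and squares were marked as outliers. CLDN3, CLDN4, CLDN10, CLDN16 and OCLN are high on H1 and R2 (HK-2 slide 1, RPTEC/TERT1 slide 2), where CLDN1 is low, while CLDN2 and CLDN12 have like control levels on all slides.

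Taking the controls as a whole, 5 of the 10 genes (CLDN3, CLDN4, CLDN10, CLDN16 and OCLN) read at least 2 log2 units higher on H1 and R2 than on both others, which 961 of 17426 genes (5.51%) did, and 1 (CLDN1) read at least 2 log2 units lower, as did 983 genes (5.64%). OCLN and CLDN10 were not well above background where they were low. The split follows the correlation of the arrays and not the line names, and no gene of the 10 was at least 2 log2 units apart between both slides of a line and both of the other, as 9 of 17426 genes (0.0516%) were, all higher in HK-2 as titled. Between the control arrays of the lines as titled, limma without a block called 0 of 9 genes tested, and 0 of 15717 genes overall (0%). With 2 slides of either kind within each line, the SE of CLDN3 in this comparison was 3.65 log2 units.

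Some markers of the thick limb differed with this split, and their part in the results was not tested. Of 14 proximal tubule markers, 7 to 10 were well above background on the control arrays. Of 6 markers of the thick limb and distal tubule, 3 were so on H1 and R2, and 1 and 2 on the controls of R1 and H2. SLC12A1, the sodium, potassium and chloride cotransporter of the thick limb, had control levels of 4.34 and 4.99 on the first pair and was not well above background on the other slides. KCNJ1, a potassium channel of that segment, was well above background on the same pair of controls alone, at 0.77 and 0.48. UMOD was so on all 4 controls, PVALB on that of H2 alone, and SLC12A3 and CALB1 on none. With IL-1β SLC12A1 read -0.49 and -0.52 on the first pair, 28.5-fold and 45.6-fold lower. Of 7 collecting duct markers, 1 was well above background on each control array. Fewer cells that express a gene and less RNA per cell cannot be told apart in these samples.

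In the test across genes, the 10 as a group were read against the share of all genes called. Without a block and with 6 groups, limma called 0 of 9 genes tested with IL-1β in HK-2 as titled and 0 of 9 in RPTEC/TERT1, where 0 of 15717 genes were called (0%). At an unadjusted p under 0.05 the counts were 2 and 1 of the 9, and 591 and 449 of all genes. For the mean of both lines, 0 of 9 were called against 8 genes overall (0.0509%), with 1 of 9 at an unadjusted p under 0.05 and 1200 of all genes. For Empa the same fit called 0 of 9 in each line and in the mean, and 0 genes overall (0%), where an unadjusted p under 0.05 was found for 1 of 9 in HK-2, for 0 in RPTEC/TERT1 and for 1 in the mean, and for 198, 43 and 204 of all genes. The tests of the difference in response between the lines called 0 of 9 for either agent, and 0 of 15717 genes (0%). An unadjusted p under 0.05 was found for 1 of 9 with each agent, and for 37 (IL-1β) and 33 (Empa) of all genes. With outlier spots kept, where CLDN4 is read by its brighter probe, 0 of 9 reached that p for either agent in these tests between the lines. In that fit the counts for Empa in HK-2 and in the mean were also 0 of 9, against 199 and 205 of all genes. For IL-1β in HK-2 the count was 1 of 9, against 615 of all genes, and in RPTEC/TERT1 and in the mean it stayed at 1.

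With the slide as a block, 0 of 9 passed for IL-1β in either line as titled, where 0.255% (HK-2) and 0.267% (RPTEC/TERT1) of all genes did. In the mean of both lines CLDN1, CLDN12 and CLDN3 passed for IL-1β, 3 of 9 against 855 of all genes (5.44%). The log2 fold changes were 1.62 for CLDN1 (SE 0.34, adjusted p = 0.0408), 1.24 for CLDN12 (SE 0.18, adjusted p = 0.0156) and -1.05 for CLDN3 (SE 0.16, adjusted p = 0.0175, limma). With 1 effect per treatment over the 4 slides, which does not use the line names, CLDN16 passed too (-1.33, SE 0.35, adjusted p = 0.0389), so that 4 of 9 were called against 1955 genes (12.4%), CLDN1 and CLDN12 upward (4.52% of all genes) and CLDN3 and CLDN16 downward (7.91%). The adjusted p in this fit was 0.0103 for CLDN1, 0.00274 for CLDN12 and 0.00329 for CLDN3. OCLN entered only when genes well above background on at least 3 arrays were tested, and it passed there (-1.01, SE 0.19, adjusted p = 0.0119), which made 5 of 9 against 1894 genes (11.1%). A fit of control and IL-1β arrays alone, with outlier spots kept, called CLDN12, CLDN3 and OCLN, 3 of 10 against 6.52% of all genes. Arrays on which OCLN was not well above background are part of both fits, 6 of 12 in the first and 4 of 8 in the second.

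Not all of these calls held over the slides and scalings. CLDN12 and CLDN3 passed whichever of the 4 slides was left out, whereas CLDN1 did not pass without H1 (adjusted p = 0.0627) or R2 (adjusted p = 0.107), and CLDN16 did not pass when any 1 of the 4 was left out (adjusted p between 0.0618 and 0.224). OCLN passed only without H2 among these, and CLDN10 passed only without R1 (adjusted p = 0.0497). With quantile normalization, with normexp background correction or in the authors' table, CLDN1, CLDN12 and CLDN3 passed and CLDN16 and OCLN did not. The median log2 fold change of the 9 genes was -0.42 with IL-1β, against -0.11 over all genes tested. This median is the value of the dim CLDN4 probe. With outlier spots kept and no block it was -0.28 against -0.11, and with normexp -0.05 against -0.01. For all 10 genes it was -0.40 against -0.11 (well above background on at least 3 arrays, 1 effect per treatment, outlier spots kept). With Empa, 0 of 9 were called with the slide as a block and 1 effect per treatment, against 1 gene overall (0.00636%), and the medians were -0.18 and -0.02.

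Read by sign alone on all 4 slides, CLDN1 and CLDN12 lay above the control with IL-1β, as did 2583 of 17426 genes (14.8%), and CLDN3, CLDN16 and OCLN below it, as did 4183 (24%). For OCLN neither array was well above background on H2 and R1. With Empa, CLDN2 and CLDN16 lay below it, as did 2325 genes (13.3%). With outlier spots kept CLDN4 did so too, by a difference of -0.01 log2 units on H1, which is not resolved. On all 4 slides 0 of the 10 lay above the control with Empa, as 2105 genes (12.1%) did.

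**Figure D3:**
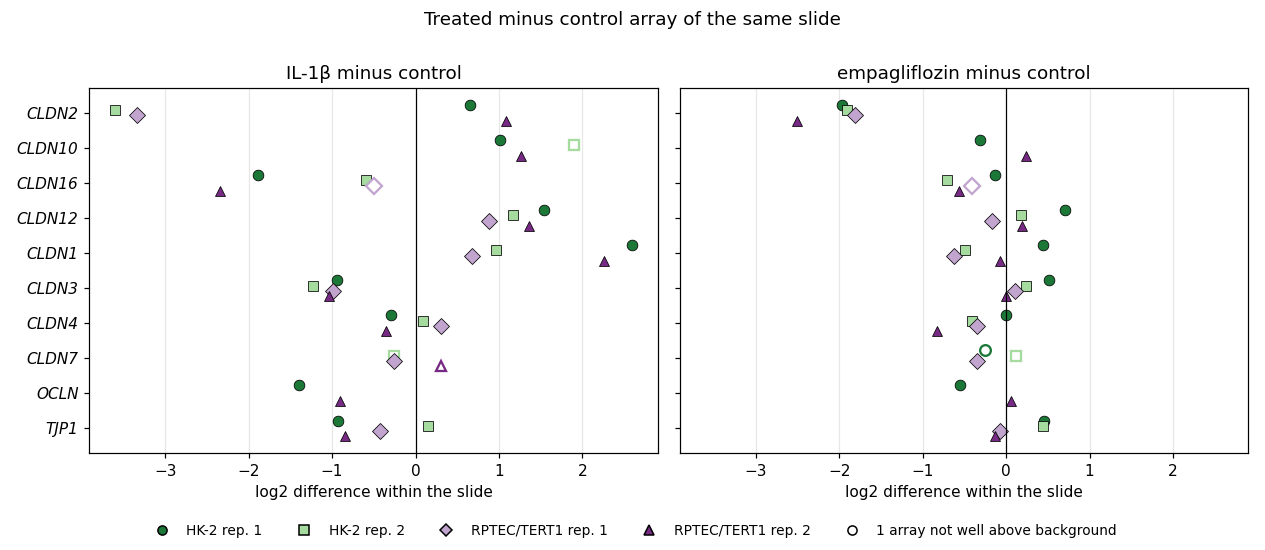
Each point is the log2 difference of an IL-1β array (left) or an Empa array (right) from the control of the same slide, with the genes on the y axis and the 4 slides as 4 symbols; open symbols have 1 array not well above background, and pairs with neither above it are left out. CLDN2 is split between 1.08 and -3.60 with IL-1β and lies between -2.51 and -1.81 with Empa, where the other genes, each by its brightest probe, lie no further than 0.82 from 0.

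The partners of these proteins were taken from 4 lists. Of 15 other claudins, 7 could be tested (genes well above background on at least 3 arrays, the slide as a block, 1 effect per treatment, outlier spots kept), and 0 passed with IL-1β. CLDN11, which seals myelin and Sertoli cell barriers, had control levels of 4.10 and 4.07 on H2 and R1, and 5.73 and 5.52 with IL-1β, and it was not well above background on the other slides. CLDN14, a partner and blocker of CLDN16 pores in the thick limb, was well above background on the other pair, at 1.76 and 2.33 in the controls of H1 and R2. CLDN11 and CLDN14 thus split the slides in opposite ways.

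Of 13 other membrane proteins of the junction, 12 were tested and 2 fell with IL-1β, MARVELD2 (tricellulin, of the corners where 3 cells meet) and MARVELD3. MARVELD2 differed from control by -0.88, -0.52, -0.74 and -1.06 log2 units on H1, H2, R1 and R2. MARVELD3 was not well above background on any IL-1β array. It was at least 1.95-fold lower on H1, 12.5-fold on H2 and 3.09-fold on R1, and neither array was well above background on R2.

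Of 24 scaffold and polarity proteins, 8 fell and 0 rose: CGN, CGNL1, TJP3, MAGI2, MAGI3, PARD6A, PARD6B and AMOT. MAGI2 was not well above background on any IL-1β array and on 1 control only, that of R2, so its call rests mostly on dim values. The largest falls came from CGN, cingulin, a cytoplasmic junction protein that binds zonula occludens proteins. It read 2.53 and 2.66 in the controls of H1 and R2 and -2.05 and -2.03 with IL-1β, a 23.8-fold and a 25.7-fold fall. On H2 and R1 its fall was 1.95-fold and 1.92-fold, from -1.41 and -1.57. CGNL1, its paralog paracingulin, had the reverse order, 4.67-fold and 4.91-fold lower on those slides and 1.05-fold and 1.61-fold lower on the first pair. PARD6A, a polarity adaptor, was 1.65-fold to 2.80-fold lower over the 4 slides. PARD6B, its relative, was lower on 3 slides and 1.07-fold higher on H2.

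Of 8 genes of junction contractility and turnover, 1 fell: MYLK, the myosin light chain kinase that acts on the actin ring of the junction. MYLK was 2.05-fold, 2.45-fold, 2.15-fold and 2.15-fold lower with IL-1β on H1, H2, R1 and R2. In the same fit 2026 of 17426 genes were called (11.6%), 752 upward and 1274 downward. The median log2 fold change was -0.44 for the scaffold list, -0.25 for the membrane proteins, -0.18 for the other claudins and 0.04 for the contractility list, against -0.11 over all genes. With Empa 0 genes of the 4 lists were called, against 1 gene overall (0.00574%). This fit was chosen after the data were seen. Without outlier spots it called 7 scaffold genes, CGN no longer among them. The same model over the 15717 genes kept for the main tests, also without outlier spots, called 8 scaffold genes, CGN among them. Without a block limma called 0 of 47 genes of the 4 lists with IL-1β, 7 of them at an unadjusted p under 0.05.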

How the data were processed

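Each array measured total RNA of 1 sample, and groups were taken from the sample titles. The authors scanned the arrays with Agilent's software and deposited each spot's intensity, background-subtracted and detrended per the file headers, with no normalization between arrays. A table in log2 units was also deposited by the authors and served as an alternative. Its scale differs between slides, with medians from 6.53 to 8.29, and its exact normalization is not given in the sources used here. Probe positions are on hg19.

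Control spots were left out, outlier spots too unless stated, and spots of a probe were averaged. Each array was scaled to its own 75th percentile, with a floor of 1 signal unit, and log2 was taken. Differences within a slide are values without a test. For tests, 1 probe per gene was kept, namely the brightest that passed the mark for signal well above background on each array of some group. This left 15717 genes, 9 of the 10 among them: OCLN was not tested there, and CLDN4 only by its dim probe. The 12 arrays were fitted with limma 3.58.1 (R 4.3.3) as 6 groups, with Benjamini-Hochberg adjustment over all genes tested and a threshold of 0.05, and tested on simulated data. Deviations of arrays of a slide from their group means correlated at r between 0.592 and 0.906. With 2 arrays per group the deviations of both replicates mirror each other. These values therefore include the difference between the slides of a line as titled, and they do not show a pairing beyond it. Fits with the slide as a block are given. P-values set a difference against the spread between these arrays. Without a block that spread includes the difference between the slides of a line as titled. With the slide as a block it is how the treatment differences vary between slides.

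The text names all 10 genes with every probe, the partners that passed, and the 3 genes nearest to the one with the largest mean IL-1β difference. The genes and lists were chosen with earlier results of these data known. Promoters came from RefSeq by symbol, for 10 of 10 genes. Alternatives were another normalization, background correction, filter, floor or block, outlier spots kept, and single arrays left out.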

Additional observations from a re-analysis of the deposited data

Results flagged for a closer look

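TJP1 with Empa lay on opposite sides of the control in the lines as titled. The difference from the control of the slide was 0.45 and 0.44 log2 units for HK-2 replicates 1 and 2, and -0.076 and -0.13 for RPTEC/TERT1 replicates 1 and 2. The RPTEC/TERT1 values are within the range of the all-gene medians on a slide, so their direction is not resolved. The test of the difference between the lines did not pass (-0.55 log2 units, SE 0.70, adjusted p = 1, limma without a block; SE 0.47, adjusted p = 1 with the slide as a block).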

How the results depend on the processing

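Counts of the 10 genes called in the comparisons by line, between the lines and with Empa were 0 under every alternative run. For IL-1β as the mean of both lines, 0 were called without a block, 3 with the replicate block, 4 with the replicate block and 1 effect per treatment, and 1 with no filter on dim probes. Fits chosen after seeing the data gave 5 (genes well above background on at least 3 arrays, replicate block, 1 effect per treatment, also with outlier spots kept), 2 (6 groups kept), 3 (with quantile normalization, with normexp, in the authors' table, or on control and IL-1β arrays only), and 2 to 4 without 1 of the slides. With single arrays left out, and no block, the count was 0 in all 12 fits. There the log2 fold change of CLDN3 ran from -2.64 to 0.55 (0.48, 0.40, 0.41 and 0.55 in 4 fits) and that of CLDN16 from -3.16 to 0.50 (0.20, 0.04 and 0.50 in 3 fits). By construction, such a fit no longer weighs both kinds of slide equally in treated and control arrays. The 1 member above control with Empa on all 4 slides under quantile normalization was CLDN3, where the main scaling gave 0. With outlier spots kept CLDN4 joined the genes below control with Empa on all 4 slides, 3 in place of 2, though its difference on H1 was -0.01 log2 units. The signs on all 4 slides for CLDN1, CLDN2, CLDN12 and CLDN16, and of CLDN3 with IL-1β, and the split of control levels were the same under every alternative run.

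All-gene medians within a slide lay between -0.18 and 0.11 log2 units, so differences of that size are not resolved. Dim probes (CLDN7, CLDN10, CLDN16 and OCLN on some slides) give bounds or no value there.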
